A study of Danio rerio with 7 samples.

Results

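Among 433380 features measured in the zebrafish tail fin, the 150 described here ranked highest by a score for a peak 48 h after amputation at both cut edges. They were chosen by their own levels: values in FPKM (fragment counts divided by feature length and by library size) were put on the scale log2(FPKM + 1), and each feature was scored as the lower of its levels at 48 h at the edges of the cut, anterior (ACE) and posterior (PCE), minus the highest of its levels in the other 5 libraries. The 150 highest scores were taken, with ties settled by the higher mean FPKM over the 7 libraries. The levels that made the score are therefore a description here, without a test, and the rise at 48 h is not itself a finding. The features carry identifiers of the form "Cluster", a prefix number, a point and a suffix number. Of the 433380 identifiers, 0 were found in the zebrafish gene tables used here, so the features are called clusters and no gene or function is given to them.

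The study's title concerns calcineurin and the polarity of the regrowing fin. Tail fin RNA was sequenced in 7 libraries, each a group of its own: 1 control, with neither an edge nor a time in its labels, and ACE and PCE at 24, 48 and 72 h post amputation (hpa). The labels name no strain, genotype, age or drug, and they do not say how the cut was made or whether fish were pooled. With 1 library per group there was no replicate, so no difference below has an error from replicates and none was tested.

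After amputation a zebrafish fin closes the wound with epidermis, and cells below it lose some of their specialised features and gather as a blastema, the proliferating tissue from which rays and soft tissue regrow. Wound closure, blastema formation and outgrowth follow one another, so that RNAs can be high in one phase and low before and after it. Calcineurin, a phosphatase activated by calcium and calmodulin, is known for dephosphorylating NFAT transcription factors, and it is known in zebrafish as a regulator of fin size.

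Relative to a depth of 1 in the control, estimated from the steps of low values, the other libraries had depths of 0.740 to 1.14, with 0.904 in ACE 48 h and 0.997 in PCE 48 h. The estimates carry no error and rest on unequal numbers of clusters, from 145 in PCE 24 h, the library at 0.740, to 2358 in ACE 72 h. For ACE 48 h the number was 1093 and for PCE 48 h 432. Absolute read numbers are unknown. ACE 48 h held 143247 clusters above 0 and PCE 48 h held 115844, and total FPKM was 1924131 and 2558325. PCE 24 h stood apart, since 33560 clusters were above 0 in it alone, against 6937 to 24029 in each of the other libraries. A score that leaves this library out chose 140 of the 150 clusters again. Of its own 150 clusters, 43 were higher in PCE 48 h and 6 in ACE 48 h by at least 1 in log2(FPKM + 1), against 45 and 7 with it. The median difference was 0.32, against 0.42. Only 1 of the 150 was above 0 in PCE 24 h, and the balance uses the same 48 h libraries. Little change was thus bound to follow, and these counts cannot show that PCE 24 h is without influence.

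The cluster with the highest score, Cluster-118330.67309, stood at 105 FPKM in ACE 48 h, against 303 FPKM in PCE 48 h. The table lists it at 0 in the control and at both edges at 24 and 72 h. Cluster-88435.0 followed with 59.6 FPKM at the anterior and 74.4 FPKM at the posterior edge at 48 h. Cluster-118330.9306 stood at 79.3 FPKM in ACE 48 h, against 51.6 FPKM in PCE 48 h. These leading clusters were alike in being seen at 48 h alone, but PCE was the higher edge for the former pair and ACE for the last. Cluster-28761.0 had 50.7 and 59.2 FPKM in ACE 48 h and PCE 48 h, Cluster-21535.0 had 50.03 and 130.2 FPKM, and Cluster-118330.99617 had 42.3 and 49.3 FPKM. All 6 were listed at 0 in the other 5 libraries, so their 2 values at 48 h and the remaining values do not overlap, as the score required.

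**Figure D1:**
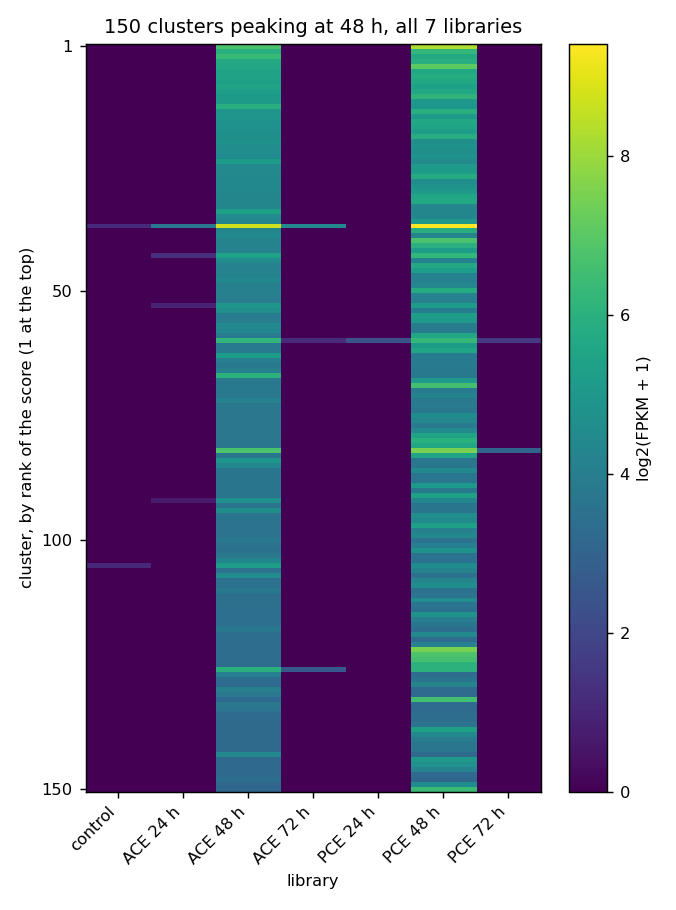
Levels of the 150 clusters (rows, by rank of the score) in the 7 libraries (columns), as log2(FPKM + 1) in colour. Both 48 h columns are filled throughout, and the other 5 columns are at 0 except in 8 rows.

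All 150 clusters had at least 8.12 FPKM in both 48 h libraries, a level that 12450 of the 433380 clusters reached. In ACE 48 h the lowest stood at 8.12 FPKM, the median at 14.5 FPKM and the highest at 426 FPKM. In PCE 48 h the lowest stood at 8.15 FPKM, the median at 22.6 FPKM and the highest at 677 FPKM. Both values lay under 20 FPKM in 54 clusters, and at least 1 of them reached 100 FPKM in 7. Together the 150 clusters held 0.181% of the total FPKM of ACE 48 h and 0.227% of that of PCE 48 h.

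The 4 clusters with the highest mean FPKM at 48 h included the one with the highest score, Cluster-118330.67309. Cluster-118330.113570 led, with 426 FPKM at the anterior and 677 FPKM at the posterior edge at 48 h, and made up 12.2% and 11.7% of the sums over the 150 clusters in these libraries. Cluster-118330.166928 stood at 106 FPKM in ACE 48 h, against 179 FPKM in PCE 48 h. Cluster-24218.0 stood at 9.19 FPKM at the anterior and 183 FPKM at the posterior edge at 48 h, so its rank by mean level rested on the posterior edge.

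Scores ran from 6.73 at rank 1 to 3.19 at rank 150, with a median of 3.72. The 3 clusters just inside were Cluster-24362.0, with 9.42 FPKM in ACE 48 h, against 8.15 FPKM in PCE 48 h, Cluster-27348.0, with 8.13 and 22.9 FPKM, and Cluster-31839.0, with 8.12 and 84.9 FPKM. Just outside were Cluster-118330.47820, Cluster-118330.127447 and Cluster-118330.182917, each with 8.12 FPKM in ACE 48 h and with 56.6, 18.7 and 9.44 FPKM in PCE 48 h. Ranks 150 to 153 thus shared the same score, and only the higher mean FPKM of Cluster-31839.0 placed it among the 150. Some values were identical within the 150. In ACE 48 h, 47 of them shared their exact FPKM with another of the 150, and 9.19 FPKM came up 4 times. In PCE 48 h, 30 did, and 13.35 FPKM came up 4 times. No such share is given here for other clusters, so these repeats are not shown to be particular to the 150. Within a library, equal FPKM follow from equal read numbers on features of equal length. The number of reads behind a value is not known, and whether few reads lie behind these repeats was not tested.

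At 48 h the posterior edge was the higher one in most of these clusters. PCE 48 h lay above ACE 48 h in 110 of the 150 (73.3%) and below it in 40. The share above was 45.5% of the 12450 clusters with at least 8.12 FPKM in both 48 h libraries, the 150 included. Among the 2765 clusters seen in both 48 h libraries and in no other, it was 67.9%, near that of the 150. The difference, PCE minus ACE in log2(FPKM + 1), had a median of 0.42 and quartiles of -0.07 and 1.14. By at least 1 on this scale, 45 clusters (30.0%) were higher in PCE and 7 (4.67%) in ACE, while 98 differed by less than 1. In bulk tissue, a difference in the number of cells that carry an RNA and in the amount per cell cannot be told apart.

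The score requires both edges to be high, which favours a small difference, so these shares were set beside clusters that were as high at 48 h whatever their levels elsewhere. Of the 12450 clusters with at least 8.12 FPKM in both 48 h libraries, the 150 included, 6.94% were higher in PCE by at least 1 and 6.17% in ACE, and the median difference was -0.05. Among the 122784 clusters with a mean of at least 1 FPKM the shares were 16.1% and 15.7%. Among the 2765 clusters seen in both 48 h libraries and in no other, at any level, 31.3% were higher in PCE and 4.45% in ACE, with a median of 0.44. The balance of the 150 clusters was thus near that of all clusters seen at 48 h alone, and its posterior share was larger than among clusters as high at 48 h. It is not particular to the 150 highest scores.

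**Figure D2:**
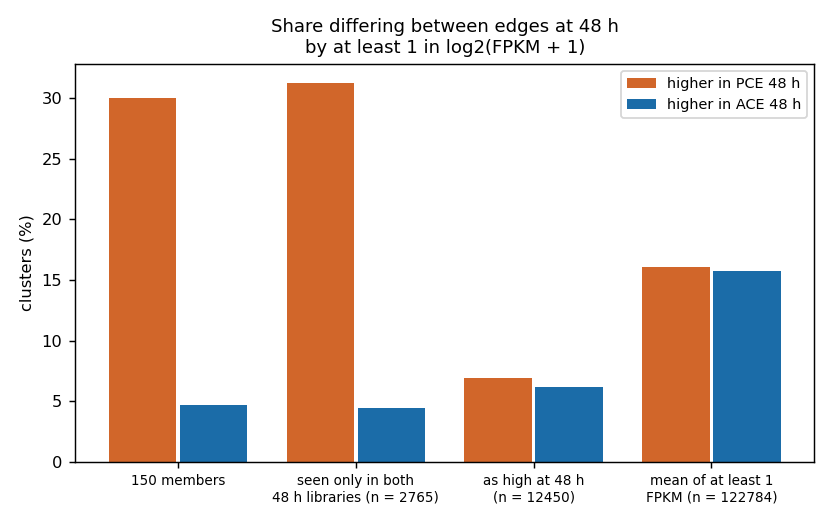
Share of clusters (%) higher in PCE 48 h or in ACE 48 h by at least 1 in log2(FPKM + 1), in the 150 clusters, in all clusters seen only in both 48 h libraries, in clusters with at least 8.12 FPKM in both, and in clusters with a mean of at least 1 FPKM. The posterior share is 30.0% and 31.3% in the former pair of sets, and 6.94% and 16.1% in the latter.

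The size of this posterior lean depended on how the libraries were scaled. For the same 150 clusters, scaling each library to an equal total FPKM, an alternative added after the data were seen, gave 27 higher in PCE and 16 in ACE, with a median of 0.03. Quantile normalization gave 30 and 10, with a median of 0.07, and median-of-ratios scaling gave 52 and 3, with a median of 0.63. The clusters above 0 in all 7 libraries, 27986 in number, moved along with each scaling. Their median PCE minus ACE at 48 h was -0.15 on the deposited values, and -0.47, -0.33 and 0.02 under the 3 scalings in the order above. The median of the 150 clusters minus that of the shared clusters was 0.57 on the deposited values, and 0.50, 0.40 and 0.61 under the scalings. Equal total FPKM and median-of-ratios scaling multiply a whole library by a single factor, which moves both sets almost alike. Their gaps were therefore bound to stay near 0.57. These gaps cannot show whether the lean relative to the shared clusters depends on scaling. The lean of the 150 clusters taken alone did change with scaling, as given above.

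The clusters with the most posterior balance were Cluster-24218.0, described above, Cluster-118330.206213 and Cluster-118330.13136. Cluster-118330.206213 stood at 9.19 FPKM at the anterior and 107.9 FPKM at the posterior edge at 48 h. Cluster-118330.13136 stood at 9.19 FPKM in ACE 48 h, against 97.1 FPKM in PCE 48 h. All 3 shared the same ACE value, and their differences in log2(FPKM + 1) were 4.18, 3.42 and 3.27. This shared value, 9.19 FPKM, was near the lowest in ACE 48 h among the clusters of the set, 8.12 FPKM. The size of these differences thus depends on a low anterior value. Read numbers are unknown, and whether few reads lie behind that value was not tested.

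The most anterior balance was that of Cluster-118330.14271, with 65.6 FPKM at the anterior and 13.0 FPKM at the posterior edge at 48 h, a difference of -2.25 in log2(FPKM + 1). Cluster-25781.0 stood at 37.6 FPKM in ACE 48 h, against 13.35 FPKM in PCE 48 h, and Cluster-118330.96813 at 30.0 and 11.8 FPKM. The anterior extreme was thus nearer to balance than the posterior one. At the centre, Cluster-118330.176265 stood at 18.9 FPKM at the anterior and 19.0 FPKM at the posterior edge at 48 h, Cluster-97722.0 at 8.30 and 8.24 FPKM, and Cluster-118330.184213 at 12.3 and 12.45 FPKM. In all, 41 of the 150 clusters differed between the edges by less than 0.25 in log2(FPKM + 1). No such share is given here for other clusters, so this count does not set the 150 apart.

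**Figure D3:**
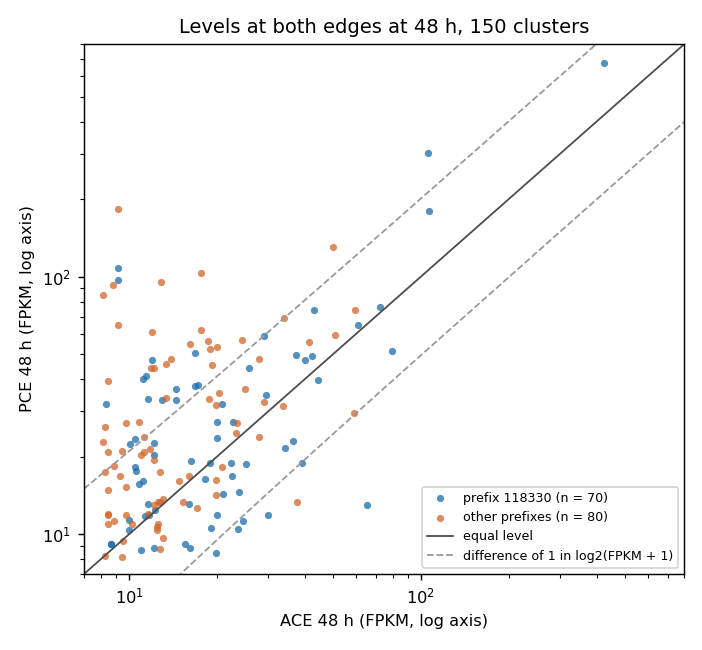
FPKM in ACE 48 h (horizontal log axis) and PCE 48 h (vertical log axis) of the 150 clusters, coloured by whether the prefix of the identifier is 118330. More points lie above the upper dashed line, where PCE is higher by at least 1 in log2(FPKM + 1) (45), than below the lower one (7).

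Levels at both edges were loosely related within the set. Pearson's r of log2(FPKM + 1) between ACE 48 h and PCE 48 h across the 150 clusters was 0.49 and Spearman's rho was 0.33, against 0.89 and 0.78 across the 12450 clusters with at least 8.12 FPKM in both. Clusters are not independent replicates, they share the same 2 libraries, and the 150 have a narrow range of levels, so these values are descriptions. The lean did not build up along the ranking. The number higher in PCE by at least 1 was 14 in ranks 1 to 50, 15 in ranks 51 to 100 and 16 in ranks 101 to 150, and the number higher in ACE was 1, 4 and 2.

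Before and after 48 h, 142 of the 150 clusters were listed at 0 in all 5 other libraries. The score favours such clusters. Of the 12450 clusters with at least 8.12 FPKM in both 48 h libraries, 145 (1.16%) were listed at 0 in the other 5, and 142 of these were among the 150. In that wider set the share listed at 0 in a single library was 2.96% in ACE 72 h, 5.14% in ACE 24 h, 9.16% in PCE 72 h, 10.1% in the control and 14.2% in PCE 24 h. A value of 0 means only that the table lists 0 and gives no bound on the level, since read numbers are unknown.

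The remaining 8 clusters, all with the prefix 118330, had some level outside 48 h. In the control 2 of the 150 clusters were above 0, with at most 1.15 FPKM. At 24 h there were 4 in ACE and 1 in PCE, and at 72 h 3 in ACE and 2 in PCE. Over both edges, 5 clusters were above 0 at 24 h and 4 at 72 h, so neither side of the peak held more than a few.

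Cluster-118330.113570 had the highest level outside 48 h. The control had 1.15 FPKM, and ACE had 12.4, 426 and 20.6 FPKM at 24, 48 and 72 h, while PCE was listed at 0, 677 and 0 FPKM at these times. Its anterior course thus had levels on both sides of the peak, and its posterior course was listed at 0 on both sides. Cluster-118330.166928 had 7.25 FPKM in PCE 72 h, with 0 listed for the control, for 24 h and for ACE 72 h. Cluster-118330.157915 stood at 61.0 FPKM in ACE 48 h, 64.8 FPKM in PCE 48 h and 5.09 FPKM in ACE 72 h, and was listed at 0 elsewhere. Each was thus above 0 in a single library after 48 h and was listed at 0 before it.

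Cluster-118330.171455 was above 0 at both edges after the peak. It stood at 72.7 FPKM in ACE 48 h, against 76.4 FPKM in PCE 48 h, at 4.10 FPKM in PCE 24 h, and at 1.24 and 1.93 FPKM in ACE 72 h and PCE 72 h. Cluster-118330.171456, which has the next suffix number, stood at 43.0 FPKM in ACE 48 h, 74.0 FPKM in PCE 48 h and 1.43 FPKM in ACE 24 h. They were the only pair among the 70 clusters with this prefix whose suffixes follow each other, and the table does not say whether they are related in sequence. The last 3 of the 8 had traces in 1 library each. These 3 and Cluster-118330.171456 fall outside the rule for named clusters and were named after their values were seen. Cluster-118330.119218 had 0.93 FPKM and Cluster-118330.197143 had 0.60 FPKM in ACE 24 h, and Cluster-118330.126750 had 1.07 FPKM in the control.

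The prefix of the identifier was not used by the score. The prefix 118330 is that of 253955 clusters in the table (58.6%), and 70 of the 150 clusters had it (46.7%). Of the other 80, 68 had a prefix that no other cluster carries, 12 had a prefix shared with a few clusters, and 0 shared such a prefix with another of the 150. Among the 70 clusters with the prefix 118330, 16 were higher in PCE by at least 1 and 6 in ACE, with a median difference of 0.22. Among the 80 others, 29 were higher in PCE and 1 in ACE, with a median of 0.64. No such split by prefix is given here for clusters outside the 150. The contrast is thus not shown to be particular to the 150. The sources used here do not say what a prefix denotes.

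The prefixes of these 80 clusters were unevenly spread, a pattern noticed after the values were seen. Between 20000 and 39999 lay 52 of them (65.0%), with prefixes from 20363 to 31839, against 12.0% of all clusters in the table without the prefix 118330. The following shares likewise leave out that prefix. Of the clusters above 0 in PCE 48 h alone, 64.0% lay in the range (5193 of 8109), while of those above 0 in ACE 48 h alone 6.39% did (259 of 4053). For clusters in 1 other library alone the share ran from 0.238% in the control to 16.5% in PCE 24 h. Of the clusters seen in both 48 h libraries and no other, 52.5% had a prefix in the range (938 of 1788), against 5.79% for those seen in both 24 h libraries alone and 7.88% for those seen in both 72 h libraries alone.

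With the prefix 118330 counted in, the range held 34.7% of the 150 clusters, 33.9% of the 2765 clusters seen in both 48 h libraries and no other, 47.2% of the 11001 in PCE 48 h alone, 2.73% of the 9495 in ACE 48 h alone and 4.98% of the whole table. The prefix 118330 itself was that of 26.3% of the clusters in PCE 48 h alone and 57.3% of those in ACE 48 h alone, and the 46.7% of the 150 clusters lay between. It was that of 35.3% of the 2765 clusters seen in both 48 h libraries and no other. When the same score was computed for the 24 h pair and for the 72 h pair, 103 and 100 of the 150 highest clusters had it. In the share with a prefix between 20000 and 39999 the 150 clusters were thus nearer to PCE 48 h alone, and in the share with the prefix 118330 nearer to ACE 48 h alone. By at least 1, 19 of the 52 clusters in the range were higher in PCE and 1 in ACE, with a median difference of 0.70. Of the 28 with other prefixes, 10 were higher in PCE and 0 in ACE, with a median of 0.38. The posterior shares of these groups were thus close. No such counts are given here for clusters outside the 150. The part of the numbering, or of 1 library, in the choice of the 150 clusters and in their edge balance was not tested.

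**Figure D4:**
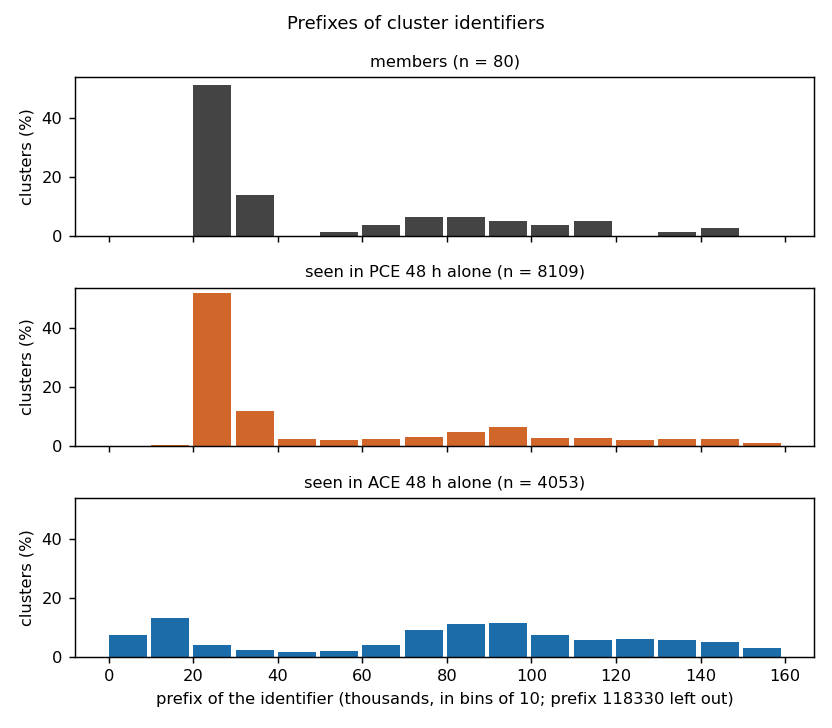
Distribution of identifier prefixes in bins of 10000 (horizontal axis), with prefix 118330 left out of every panel, as a percentage of the clusters in each panel, for the 80 clusters peaking at 48 h, for clusters seen in PCE 48 h alone (8109) and for clusters seen in ACE 48 h alone (4053). The upper panels share a high bar from 20000 to 29999, which the lowest panel lacks.

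The 12 prefixes shared with other clusters brought in 30 clusters outside the 150, here called mates, which the rule for named clusters did not cover. Of the mates, 20 were above 0 in at least 1 library other than those at 48 h, 5 were above 0 only at 48 h, and 5 were listed at 0 everywhere. Shares over other clusters with such prefixes are not given here, so these counts do not set the mates apart. A score of at least 1 was reached by 1 mate, Cluster-78302.0, with 7.55 FPKM at the anterior and 24.15 FPKM at the posterior edge at 48 h. Its partner among the 150, Cluster-78302.6, stood at 13.4 FPKM in ACE 48 h, against 45.9 FPKM in PCE 48 h, and both were listed at 0 elsewhere. In the other case, mates had levels outside 48 h. The highest was 132 FPKM in PCE 24 h, in Cluster-85969.3, a mate of Cluster-85969.5. Cluster-85969.1 had 32.6 FPKM in ACE 24 h. Cluster-94446.1, a mate of Cluster-94446.3, had 27.2 FPKM in PCE 24 h. Cluster-141917.2, whose mates had lower levels outside 48 h, was picked without a rule. It stood at 17.6 FPKM at the anterior and 61.9 FPKM at the posterior edge at 48 h and at 0 elsewhere, while its 3 mates were above 0 in the control and at several times. Cluster-141917.1 had 1.83 FPKM in the control, 2.06, 0.28 and 1.59 FPKM at the 3 times in ACE, and 0.79 FPKM in PCE 48 h alone among the PCE libraries. Cluster-141917.3 was highest in PCE 48 h, with 9.93 FPKM against at most 2.59 FPKM elsewhere, and Cluster-141917.0 also had its highest value there, 0.66 FPKM. If near-identical transcripts are split between clusters, the 0 of a cluster outside 48 h need not be that of a gene, so single levels are uncertain in this respect.

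Of all clusters, 2182 (0.503%) had a score of at least 1, of which the 150 are the top. The same score was computed with the 24 h pair and with the 72 h pair in place of the 48 h pair. A score of at least 1 was reached by 1931 clusters for 24 h and 893 for 72 h, and a score of at least 3 by 215 for 24 h, 190 for 48 h and 78 for 72 h. The order of 24 and 48 h thus changed with the bound, and it changed with scaling too. With median-of-ratios scaling 1795 clusters at 24 h and 1778 at 48 h reached 1, and with quantile normalization 1571 and 2339 did. The 72 h pair had the fewest under each of these scalings, with 868 and 1092.

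**Figure D5:**
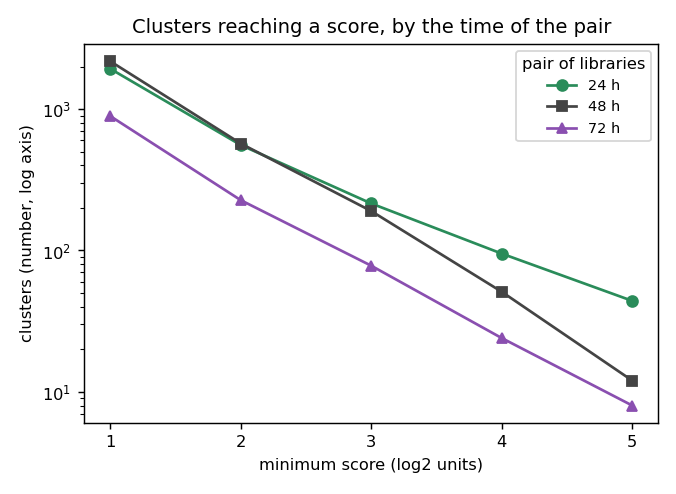
Number of clusters (log axis) that reach a minimum score of 1 to 5 (horizontal axis, log2 units), for the pairs of libraries at 24, 48 and 72 h. The 48 h line starts highest (2182) and falls below the 24 h line from a score of 3 on (190 against 215), and the 72 h line is lowest throughout.

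The 150 highest scores for the other pairs also leaned to the posterior edge. For 24 h, 98 clusters were higher in PCE by at least 1 and 4 in ACE, with a median difference of 1.33. That set rests on the PCE 24 h library, which stood apart, and has no value without it. For 72 h the counts were 67 and 6, with a median of 0.89. Among all clusters as high in both libraries of the pair, 12.8% were higher in PCE and 14.1% in ACE at 24 h. The shares were 13.2% and 25.1% at 72 h, against 6.94% and 6.17% at 48 h. The level needed was set by the 150 clusters of each pair, so these shares do not share a threshold. It was reached by 7866 clusters for 24 h, 12450 for 48 h and 15322 for 72 h. The deposited values gave the 48 h set, with 45 and 7 and a median of 0.42, the lowest median of the 3. It was also the lowest when the clusters were chosen anew under each scaling, with medians at 24, 48 and 72 h of 1.54, 0.51 and 1.28 for median-of-ratios scaling, 0.52, 0.27 and 0.82 for quantile normalization, and 0.87, 0.26 and 0.65 for equal total FPKM. Clusters listed at 0 in the other 5 libraries made up 98 of the 150 for 24 h, 136 for 72 h and 142 for 48 h. The libraries differ in each of these sets and have no replicates, and no test of the difference between the times was possible.

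Clusters with a peak at 48 h were also counted at each edge on its own. At ACE, 2291 clusters stood at 48 h above both 24 and 72 h by at least 3 in log2(FPKM + 1), and at PCE 8574 did, which is 0.529% and 1.98% of the table. These courses have no library in common, and 213 clusters were in both lists, which is 9.30% of the anterior and 2.48% of the posterior list. Over the whole table, 1.98% and 0.529% had such a peak at the other edge. That base includes clusters at 0 at 48 h, which cannot peak. Only 143247 clusters were above 0 in ACE 48 h and 115844 in PCE 48 h, and the base has the same limit at 24 and 72 h. The lists at 48 h also use levels that made the score. Their overlap is thus a description and no separate evidence of a shared peak, and no test was made. All 150 clusters are among the 213 by their choice. Of the 213, 190 were listed at 0 in the control, and in 6 the control was at or above the lower of both values at 48 h. For 24 h the shared clusters numbered 255 (7.03% of the anterior and 0.950% of the posterior list, where 6.19% and 0.837% of the table had such a peak at the other edge), and for 72 h 126 (5.25% and 2.35%, where 1.24% and 0.554% of the table did).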

How the data were processed

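The deposited table holds FPKM values that the authors computed, with 1 column for each of the 7 libraries. Per the labels' protocols, Trizol was used for RNA and the NEBNext Ultra kit for libraries. The tools named in the submitters' processing notes are edgeR, HTSeq 0.9.1 and HISAT2 2.0.5, without their roles. The genome build, the annotation and the forming of clusters were not stated in the sources used here.

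Scores, counts and medians were computed on log2(FPKM + 1), which understates differences of low clusters, in pandas 2.3.3 and numpy 2.4.6 under Python 3.11.15, with scipy 1.17.1 for depth and matplotlib 3.10.9 for plots. A difference of at least 1 counted as higher or lower. Relative depth is the mode of the log2 ratio to the control over clusters at 0.15 to 0.3 FPKM in both libraries and above 0 in at most 4. The score and the depth estimate were checked on artificial tables with known answers.

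The 150 clusters, the rules and the alternatives were chosen with earlier results of these data known. Clusters were named by a rule: the 6 highest scores, the 4 highest means at 48 h, the 3 extremes of edge balance in each direction and the 3 nearest to balance, the 4 highest levels outside 48 h, and 3 clusters on each side of the threshold. Clusters of the 150 that share a prefix of at most 100 clusters would also have been named, and there were 0. Gene lists and cell type markers could not be applied.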

Additional observations from a re-analysis of the deposited data

How the results depend on the processing

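Each alternative chose the clusters anew. The direction of the edge balance at 48 h, with more clusters higher in PCE than in ACE by at least 1 and a median above 0, held under every alternative run. Its size did not. All runs use the same 48 h libraries, so they are not independent support for the direction. The median (0.42) was 0.27 with quantile normalization, 0.26 with equal total FPKM, 0.29, 0.27 and 0.32 for scores without the control, ACE 72 h and PCE 24 h, 1.28 with a minimum mean of 5 FPKM and 1.26 when the mean of both 48 h libraries replaced the lower one. The number higher in PCE (45 of 150) was 86 of 150 under each of the last pair. It was 29 of 100 with 100 clusters chosen and 101 of 300 with 300, with medians of 0.41 and 0.49. Counts from these runs cannot be set directly against counts out of 150. The number higher in ACE (7 of 150) was 4 with median-of-ratios scaling and 12 with equal total FPKM, and it was 12 of 300 with 300 clusters chosen. With the minimum mean of 5 FPKM, 86 of the 150 clusters were chosen again. A mean over 7 libraries removes clusters that are low in both 48 h libraries. It keeps a cluster that is low at one edge only where the other edge is high. The mean of both 48 h libraries likewise lets in clusters through their higher edge. Both choices thus favour large differences, and the medians of 1.28 and 1.26 are not separate from the choice.

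Levels outside 48 h depended on which libraries the score used, by its construction. Clusters listed at 0 in the other 5 libraries (142) numbered 94 without ACE 72 h, 98 without ACE 24 h and 111 without PCE 72 h. They numbered 131 without the control, 132 without PCE 24 h, 120 with the minimum mean, 94 with 100 clusters and 280 with 300. Clusters above 0 at 24 h (5) numbered 0 with a pseudocount of 0.1, 19 with the minimum mean, 13 with 300 clusters, 50 without ACE 24 h, 15 without PCE 24 h and 8 without PCE 72 h. Clusters above 0 at 72 h (4) numbered 0 with that pseudocount, 22 with the minimum mean, 13 with 300 clusters, 12 without ACE 24 h, 53 without ACE 72 h and 35 without PCE 72 h. Clusters with a score of at least 1 (2182) numbered 4686 with the pseudocount of 0.1, 318 with the minimum mean and 14313 with the mean of the 48 h libraries. They numbered 3151 without ACE 24 h, 3375 without ACE 72 h, 3533 without PCE 72 h, 2513 without PCE 24 h and 2518 without the control. No paired analysis was possible because each group holds 1 library and no test was made. Unknown read numbers limit what the lowest of these values can show.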
